A study of Homo sapiens with 12 samples.

Results

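Bile duct epithelial cells (cholangiocytes) are recognised by a small set of transcription factors and surface proteins and by the machinery that alkalinises and dilutes bile. The set described here holds 8 genes: the transcription factor genes SOX9 and ONECUT1, the adhesion gene EPCAM, the water channel gene AQP1, the chloride channel gene CFTR, the anion exchanger gene SLC4A2, the efflux pump gene ABCC3 and the surface enzyme gene GGT1. Each symbol matched 1 row of the deposited table, giving 8 of 62703 gene IDs. They were chosen by name, with earlier results of these data known.

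The libraries came from H69, a line of normal human cholangiocytes immortalised with a viral large T antigen, so that all replicates are of 1 line. Following 6 h of serum starvation the cells received, overnight and without serum, TGFβ (10 ng/mL) plus Aramchol acid (30 µM), with TGFβ alone, with Aramchol alone, or with vehicle. TGFβ is a profibrotic cytokine, under which many epithelia lose epithelial features, and Aramchol joins a bile acid to a fatty acid and inhibits stearoyl-CoA desaturase. The labels state 1 Aramchol dose, which was read as that of both groups given the compound. Each of the 4 groups had 3 RNA sequencing libraries, with 52279922 to 70339925 counts per library. Whether replicates came from separate cultures is not in the labels, and the spread behind each p-value may therefore be technical. The libraries numbered 3 stood apart: in all 6 pairs of groups their deviations from the group means correlated, at 0.111 to 0.221 across genes. With the libraries numbered 1 and 2 alone, the ONECUT1 call given below was the only member call that changed.

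In the duct, secretin raises cAMP in the cholangiocyte, cAMP opens CFTR at the apical membrane, and the chloride that leaves is exchanged for bicarbonate by SLC4A2 (also called AE2). Water follows through AQP1. ABCC3 (MRP3) moves conjugated organic anions across the basolateral membrane, and GGT1 (gamma-glutamyltransferase) cleaves glutathione outside the cell. SOX9 marks biliary cells from early duct formation, ONECUT1 (HNF6) is needed for bile duct development in mice, and EPCAM is a surface glycoprotein that cholangiocytes carry and mature hepatocytes largely lack.

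Of the 7 genes with enough reads to test, AQP1 varied most over the 12 libraries (SD 2.13 on the log2 scale, against 0.31 to 0.65 for the others), so its promoter is shown. The 250 bases before its RefSeq start lie on GRCh38.p14 at chr7:30911603-30911852, plus strand, and end at the base before the start of the gene in the deposited table. Capitals mark the letters GTCTG, the reverse complement of CAGAC, which is the short element bound by SMAD proteins, the transcription factors of the TGFβ pathway.
AQP1: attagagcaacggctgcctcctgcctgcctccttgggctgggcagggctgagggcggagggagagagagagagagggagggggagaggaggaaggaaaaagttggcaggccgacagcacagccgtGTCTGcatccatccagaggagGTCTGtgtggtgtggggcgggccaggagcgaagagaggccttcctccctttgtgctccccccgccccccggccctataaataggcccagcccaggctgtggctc
Both strands were searched. CAGAC was found at 2 places in this window, both as the reverse complement, and 38.0% of 35116 windows of the same length held it at least once. GGGCGG, the element of SP1 factors, was found at 3 places (42.6% of windows hold it) and TATAAA, the TATA element, at 1 (10.7% of windows). TGANTCA, the element of AP-1, and CACCTG, an element of SNAI and ZEB repressors, were not in this window (6.57% and 17.5% of windows hold them). These are matches of letters and not tested sites. RefSeq windows were matched for 5 of the 8 genes, not for SOX9, EPCAM and ABCC3. CAGAC was not particular to AQP1 among them. The ONECUT1 window held it at 1 place and the SLC4A2 windows at 0 to 2 places, while the CFTR and GGT1 windows lacked it.

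Levels are given below in CPM (counts per 1000000 after TMM scaling), and 3 counts, the floor per library, correspond to 0.0410 to 0.0548 CPM. To set genes beside each other, TPM (counts scaled by exon length and library) was used. SLC4A2 was the highest of the 8 in every group, at 177 ± 8.91 TPM with TGFβ + Aramchol, 178 ± 10.2 with TGFβ, 131 ± 5.18 with Aramchol and 130.3 ± 4.35 in vehicle (SD, n = 3 each). ABCC3 came next in every group, at 94.7 ± 4.57 TPM with TGFβ + Aramchol, 96.9 ± 5.23 with TGFβ, 68.5 ± 2.32 with Aramchol and 67.3 ± 7.85 in vehicle. The third rank changed with TGFβ. AQP1 held it with TGFβ + Aramchol (8.76 ± 1.23 TPM) and with TGFβ (7.88 ± 0.600 TPM), and EPCAM held it with Aramchol (10.9 ± 2.23 TPM) and in vehicle (11.2 ± 1.06 TPM). EPCAM and SOX9 overlapped over libraries in the TGFβ, Aramchol and vehicle groups, and not with TGFβ + Aramchol, where SOX9 was at 6.08 ± 0.616 and EPCAM at 4.82 ± 0.666 TPM. ONECUT1 and GGT1 stayed under 1 TPM in every library, and in vehicle GGT1 (0.491 ± 0.235 TPM) and AQP1 (0.415 ± 0.0375 TPM) overlapped.

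**Figure D1:**
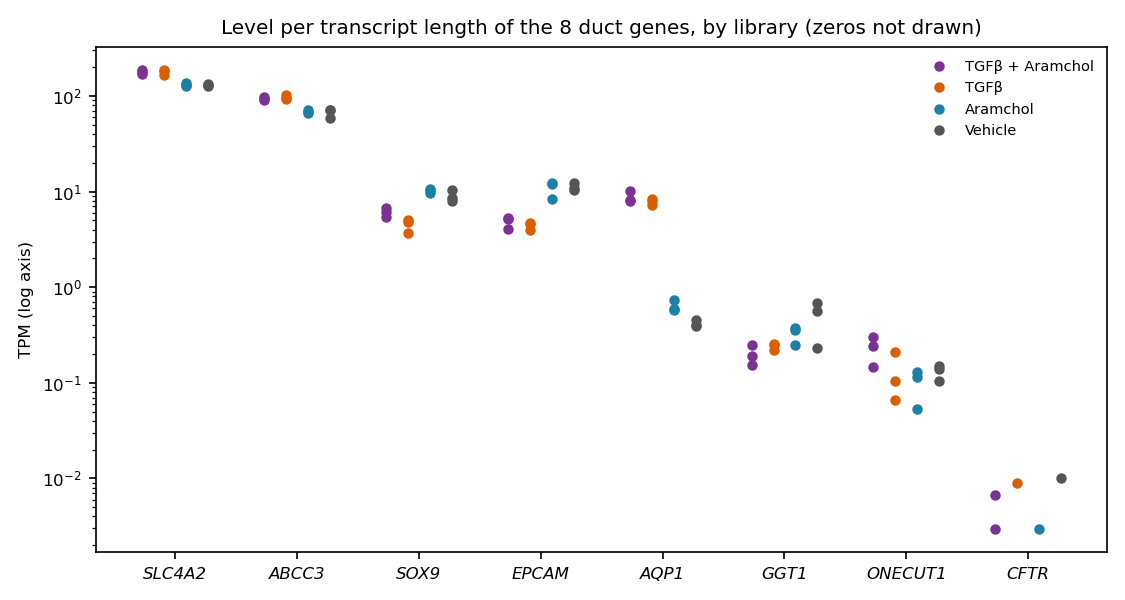
TPM on a log axis for the 8 duct genes, 1 point per library, with genes ordered by their median TPM and groups side by side. SLC4A2 and ABCC3 lie above all others, AQP1 splits into libraries with and without TGFβ, and the 7 libraries with a CFTR value of 0 are not drawn.

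CFTR was below detection. It had 10 reads over all 12 libraries and 0 in 7 of them, and its highest library held 3 counts. Its 3 libraries summed to 3 counts with TGFβ + Aramchol, 3 with TGFβ, 1 with Aramchol and 3 in vehicle, so no fold is given. It did not pass the filter on low counts, and 7 of the 8 genes were tested. ONECUT1 and GGT1 passed the filter with few reads, 6 to 33 counts per library for ONECUT1 and 12 to 53 for GGT1, which gives them the widest intervals below.

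TGFβ against vehicle asked how the cytokine moved these genes. AQP1 rose 20.9-fold, SLC4A2 rose 1.51-fold and ABCC3 rose 1.58-fold, while EPCAM fell to a level 2.29-fold lower and SOX9 to one 1.79-fold lower. Thus 3 of the 7 tested genes rose and 2 fell, where 37.0% of all 21567 tested genes passed (18.9% higher, 18.1% lower). The same 5 genes had groups that did not overlap (46.6% of all tested genes), and 6 of 7 had an unadjusted p under 0.05 (45.0% of all). The median log2 fold change was 0.14 over the 7 genes and -0.03 over all tested genes.

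AQP1 (ENSG00000240583, chromosome 7, 30911853 to 30925517, plus strand) had 7.46, 8.20 and 8.59 CPM in the 3 TGFβ libraries, against 0.372, 0.379 and 0.403 CPM in vehicle. The groups were far apart, and each vehicle library held only 23 to 28 reads of the gene. The log2 fold change was 4.39 (SE 0.16, 95% interval 4.05 to 4.73, edgeR adjusted p = 1.11e-11). It lay between 4.34 and 4.44 under all 20 alternative settings. An overlapping gene on the same strand, ENSG00000250424, covers 27.9% of the exon bases of AQP1 and had at most 1 count in a library. How the counting treated reads in such shared exons is not stated.

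EPCAM (ENSG00000119888, chromosome 2, 47345158 to 47387601, plus strand) had 3.64, 3.47 and 3.01 CPM with TGFβ, against 8.81, 7.72 and 6.73 CPM in vehicle. The highest TGFβ library was well under the lowest vehicle library. The log2 fold change was -1.20 (SE 0.16, edgeR adjusted p = 2.66e-05). In all 4 groups the library numbered 3 was the lowest for EPCAM. Over the 20 alternative settings the log2 fold change lay between -1.29 and -1.10.

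SOX9 (ENSG00000125398, chromosome 17, 72121020 to 72126416, plus strand) had 5.94, 6.23 and 4.54 CPM with TGFβ, against 9.80, 9.15 and 11.04 CPM in vehicle. The groups did not overlap, and each library held at least 250 reads. The log2 fold change was -0.84 (SE 0.12, edgeR adjusted p = 4.32e-05). ONECUT1 (ENSG00000169856, chromosome 15, 52755053 to 52791078, minus strand) had 0.201, 0.408 and 0.127 CPM with TGFβ, against 0.186, 0.247 and 0.244 CPM in vehicle. These groups overlapped, and the 95% interval of its log2 fold change of 0.14 ran from -0.85 to 1.13 (edgeR adjusted p = 0.853).

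SLC4A2 (ENSG00000164889, chromosome 7, 151057210 to 151076526, plus strand) had 399, 432 and 441 CPM with TGFβ, against 298, 277 and 268 CPM in vehicle. ABCC3 (ENSG00000108846, chromosome 17, 50634777 to 50692253, plus strand) had 281, 289 and 309 CPM with TGFβ, against 203, 202 and 151 CPM in vehicle. Neither gene overlapped between the groups, and for ABCC3 vehicle replicate 3 stood below the other vehicle libraries. The log2 fold changes were 0.59 (SE 0.06, edgeR adjusted p = 6.11e-07) for SLC4A2 and 0.66 (SE 0.09, edgeR adjusted p = 1.64e-05) for ABCC3. Over the 20 alternative settings the ABCC3 value lay between 0.50 and 0.73 and passed in each.

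GGT1 (ENSG00000100031, chromosome 22, 24594811 to 24629005, plus strand) had 0.302, 0.345 and 0.345 CPM with TGFβ, against 0.295, 0.872 and 0.661 CPM in vehicle. The groups overlapped because vehicle replicate 1 lay as low as the TGFβ libraries. The log2 fold change was -0.88 (SE 0.36, edgeR adjusted p = 0.0706), and without vehicle replicate 1 it was -1.21 (edgeR adjusted p = 0.00734). GGT1 is uncertain in any case. Of its 50-base words in GENCODE transcripts, 35.9% also occur in other genes, GGT2 and GGT3P sharing the most, and ENSG00000286070 covers 56.5% of its exon bases. The libraries are bulk samples, in which fewer cells of a type and less RNA per cell cannot be told apart.

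**Figure D2:**
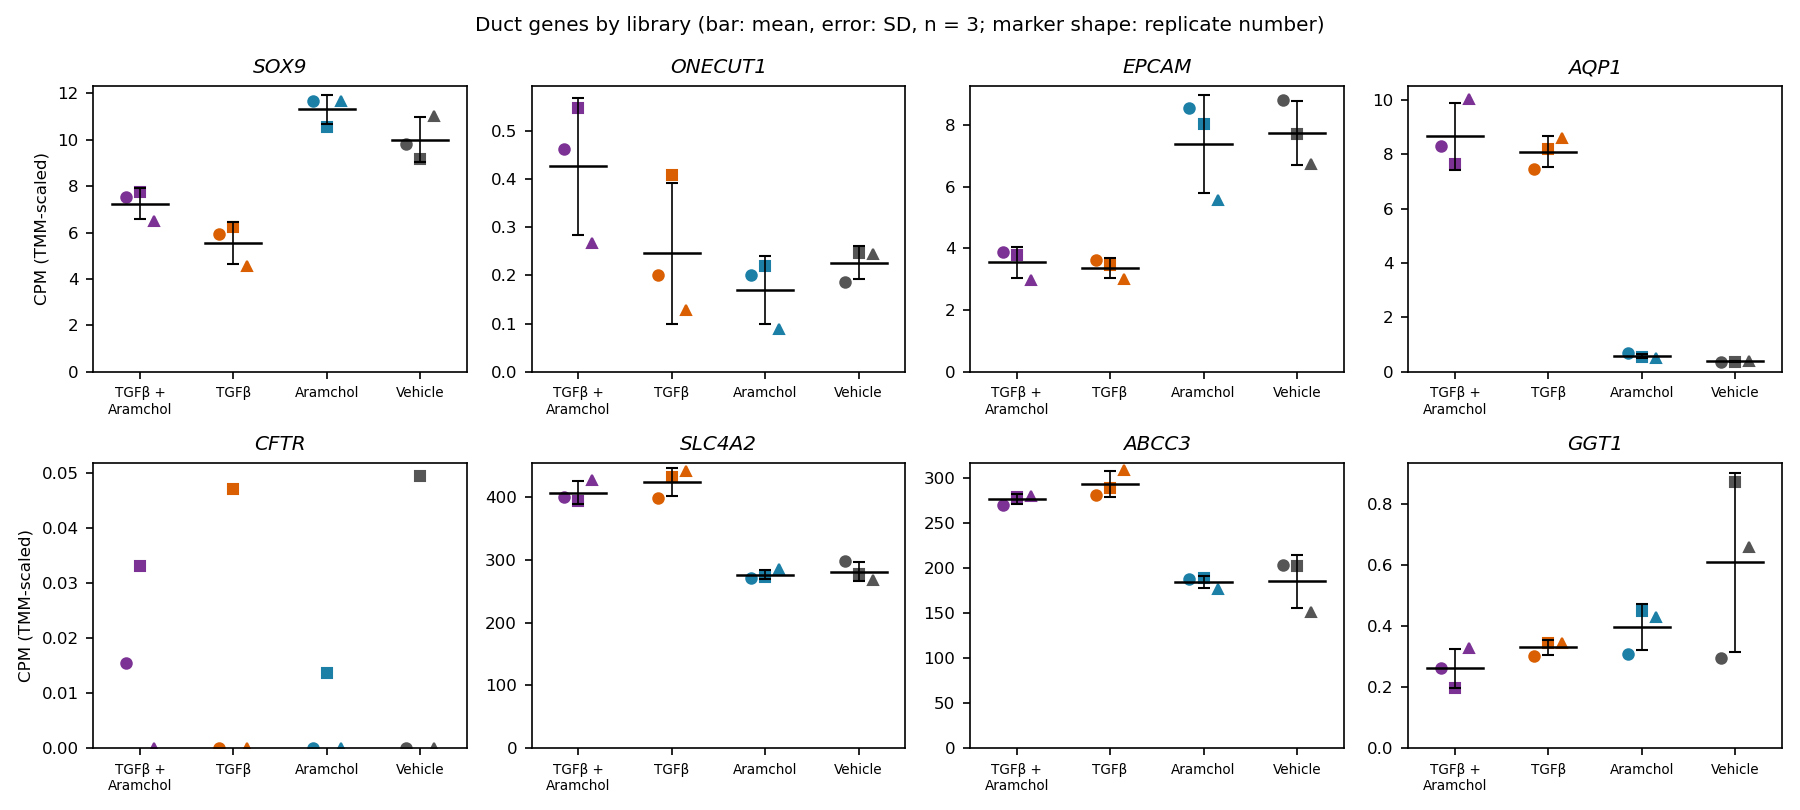
CPM of each duct gene in every library (vertical axes from 0), by group, with the mean and SD of 3 libraries as black bars and marker shape for the replicate number; CFTR is drawn as points alone. AQP1, SLC4A2 and ABCC3 are high and SOX9 and EPCAM low in both groups with TGFβ, while CFTR never exceeds 0.0494 CPM.

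Aramchol against vehicle asked what the compound did to unstimulated cells. None of the 7 tested genes passed, where 0.357% of all tested genes did. At an unadjusted p under 0.05 there was 1 of 7 (11.7% of all genes), and DESeq2 called 0. AQP1 had 0.675, 0.533 and 0.520 CPM with Aramchol, against 0.372, 0.379 and 0.403 CPM in vehicle. All 3 Aramchol libraries were above all 3 vehicle libraries, which was so for 16.0% of tested genes in either direction. The log2 fold change was 0.57 (SE 0.20, 95% interval 0.15 to 0.99, edgeR adjusted p = 0.278), from 35 to 39 reads per Aramchol library and 23 to 28 per vehicle library. SLC4A2 had 271, 273 and 285 CPM with Aramchol, ABCC3 had 187, 188 and 176 CPM, and GGT1 had 0.310, 0.451 and 0.431 CPM. For these and the other tested genes the groups overlapped. The intervals of the log2 fold change were narrow for SLC4A2 (-0.15 to 0.10) and ABCC3 (-0.19 to 0.17). They were wider for SOX9 (-0.07 to 0.42) and EPCAM (-0.40 to 0.26), and widest for GGT1 (-1.35 to 0.14) and ONECUT1 (-1.44 to 0.62).

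TGFβ + Aramchol against TGFβ asked whether the compound altered the stimulated state. Again none of the 7 passed, where 2.25% of all tested genes did (0.89% higher, 1.36% lower). At an unadjusted p under 0.05 there was 1 of 7 (17.2% of all genes), and DESeq2 called 0. SOX9 had 7.51, 7.74 and 6.48 CPM with both agents, against 5.94, 6.23 and 4.54 CPM with TGFβ. The lowest library with both lay above the highest with TGFβ alone, by a narrow gap. The log2 fold change was 0.38 (SE 0.12, 95% interval 0.12 to 0.64, edgeR adjusted p = 0.126), and its adjusted p was 0.0510 to 0.392 over the alternatives. ABCC3 did not overlap either, at 269.8, 279 and 279 CPM with both agents, against 281, 289 and 309 CPM with TGFβ (log2 fold change -0.09, edgeR adjusted p = 0.674). Groups that did not overlap made up 23.6% of tested genes here. AQP1 had 8.30, 7.65 and 10.02 CPM with both agents, and the interval of its log2 fold change was -0.15 to 0.35. For EPCAM (3.90, 3.78 and 2.98 CPM with both agents) the interval was -0.29 to 0.43, and for SLC4A2 (400.4, 393 and 427 CPM) it was -0.18 to 0.06.

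TGFβ + Aramchol against Aramchol gave the response to the cytokine in cells that also received the compound. AQP1 rose 15.1-fold, SLC4A2 1.47-fold, ABCC3 by 0.59 on the log2 scale and ONECUT1 2.49-fold, while EPCAM was 2.08-fold and SOX9 1.56-fold lower. That made 4 genes higher and 2 lower of 7, where 30.2% of all tested genes passed (16.0% higher, 14.2% lower). AQP1 had the values with both agents given above, against 0.675, 0.533 and 0.520 CPM with Aramchol (log2 fold change 3.92, SE 0.15, edgeR adjusted p = 2.71e-11). SOX9 had 11.7, 10.6 and 11.7 CPM with Aramchol and EPCAM 8.54, 8.02 and 5.57 CPM, all above the libraries with both agents. ONECUT1 had 0.462, 0.547 and 0.268 CPM with both agents, against 0.201, 0.219 and 0.0892 CPM with Aramchol. Those groups did not overlap (44.6% of tested genes), but the lowest library held 6 reads. Its log2 fold change was 1.32 (SE 0.46, edgeR adjusted p = 0.0399). The call was lost with the libraries numbered 1 and 2 alone (adjusted p = 0.05003). It was also lost without any one of TGFβ + Aramchol replicates 1 and 2, Aramchol replicates 1, 2 and 3, and vehicle replicate 2 (adjusted p 0.0504 to 0.152).

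TGFβ + Aramchol against vehicle gave the net state. AQP1, SLC4A2 and ABCC3 were 22.4-, 1.45- and 1.49-fold higher, and SOX9, EPCAM and GGT1 were 1.38-, 2.18- and 2.30-fold lower, so that 6 of 7 passed where 35.2% of all tested genes did (18.2% higher, 17.0% lower). GGT1 had 0.262, 0.199 and 0.328 CPM with both agents, against 0.295, 0.872 and 0.661 CPM in vehicle. The groups overlapped through vehicle replicate 1. Its log2 fold change was -1.20 (SE 0.37, edgeR adjusted p = 0.0185). The call was lost without TGFβ + Aramchol replicate 1 or 2 (adjusted p = 0.0515 and 0.0697) or vehicle replicate 2 (log2 fold change -0.86, adjusted p = 0.113). ONECUT1 did not overlap (44.0% of tested genes) and had a log2 fold change of 0.90 (SE 0.44, edgeR adjusted p = 0.130). SOX9 was closest to vehicle among the genes that fell, with a log2 fold change of -0.47 (SE 0.12, edgeR adjusted p = 0.00603).

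The interaction, the TGFβ response with Aramchol minus that without it, was called for 0 of the 7 genes, where 0.0139% of all tested genes passed, and no member reached an unadjusted p under 0.05 (5.27% of all genes did); DESeq2 called 0. The AQP1 response was 3.92 with Aramchol and 4.39 without it on the log2 scale, a difference of -0.47 (95% interval -0.96 to 0.02, edgeR adjusted p = 0.951). The difference was -0.03 (-0.20 to 0.14) for SLC4A2, -0.08 (-0.34 to 0.18) for ABCC3, 0.14 (-0.35 to 0.63) for EPCAM and 0.20 (-0.16 to 0.56) for SOX9. It was 1.18 (-0.22 to 2.57) for ONECUT1 and 0.28 (-0.85 to 1.40) for GGT1, the widest intervals of the 7.

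**Figure D3:**
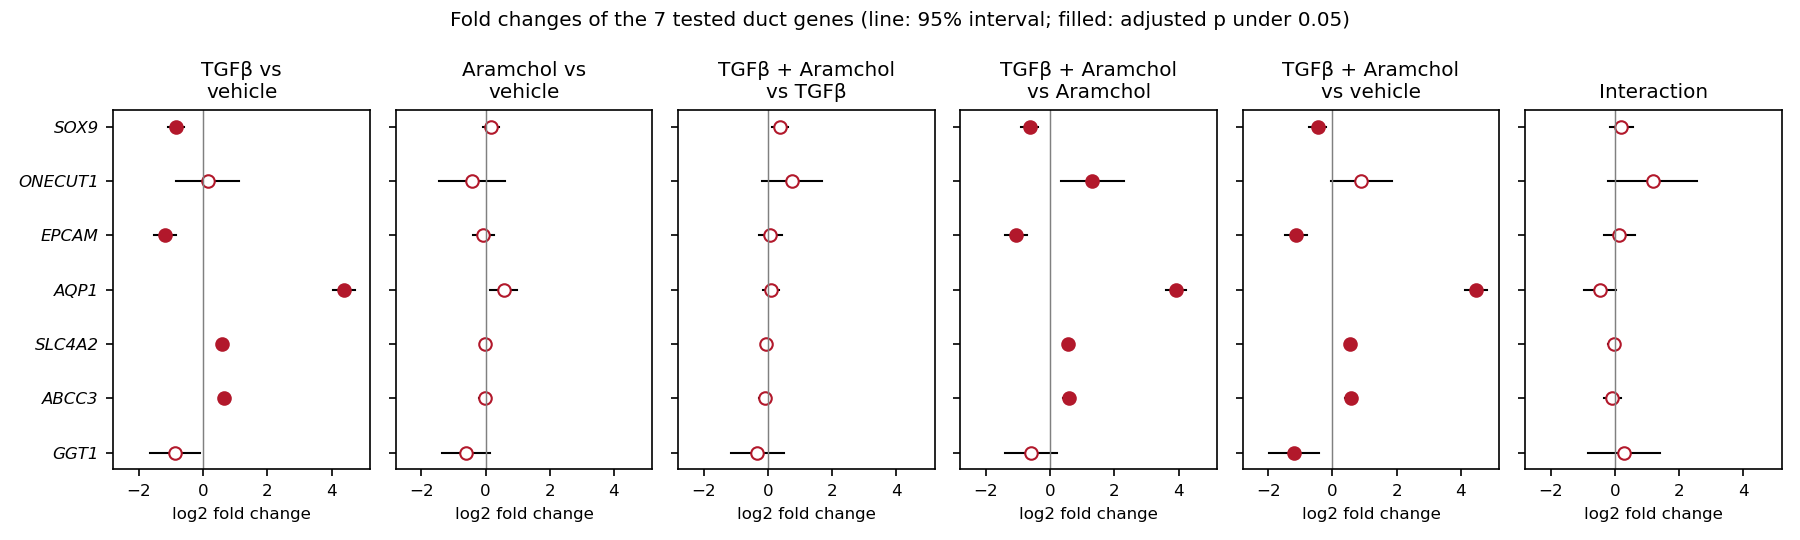
Log2 fold changes with 95% intervals of the 7 tested duct genes in each comparison and in the interaction, filled where the adjusted p was under 0.05. All filled points are in the 3 comparisons of libraries with TGFβ and libraries without it; Aramchol against vehicle, TGFβ + Aramchol against TGFβ and the interaction hold 0 of 7 each.

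Other genes of the same functions were read from lists chosen by function, also with earlier results of these data known. Of 27 measured genes of chloride, bicarbonate and water transport, 17 were tested against vehicle with TGFβ, and 7 rose and 2 fell, where 37.0% of all tested genes passed, 18.9% higher and 18.1% lower (median log2 fold change 0.04, against -0.03 over all tested genes). The 2 that fell were both aquaporin genes, opposite to AQP1. AQP3, a channel for water and glycerol, had 3.61, 4.80 and 4.10 CPM with TGFβ, against 17.2, 14.9 and 11.3 CPM in vehicle (log2 fold change -1.79, edgeR adjusted p = 3.35e-06). AQP5, a water channel of secretory glands, had 0.0335, 0.0784 and 0.127 CPM with TGFβ, from 2, 5 and 7 reads and so below the floor in replicate 1, against 1.27, 1.27 and 0.690 CPM in vehicle (log2 fold change -3.74, edgeR adjusted p = 4.02e-05). The groups did not overlap for either gene. AQP11 overlapped between them (log2 fold change -0.52, edgeR adjusted p = 0.214), AQP8 and AQP9 held 5 reads each over 12 libraries, and AQP4 held 0.

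**Figure D4:**
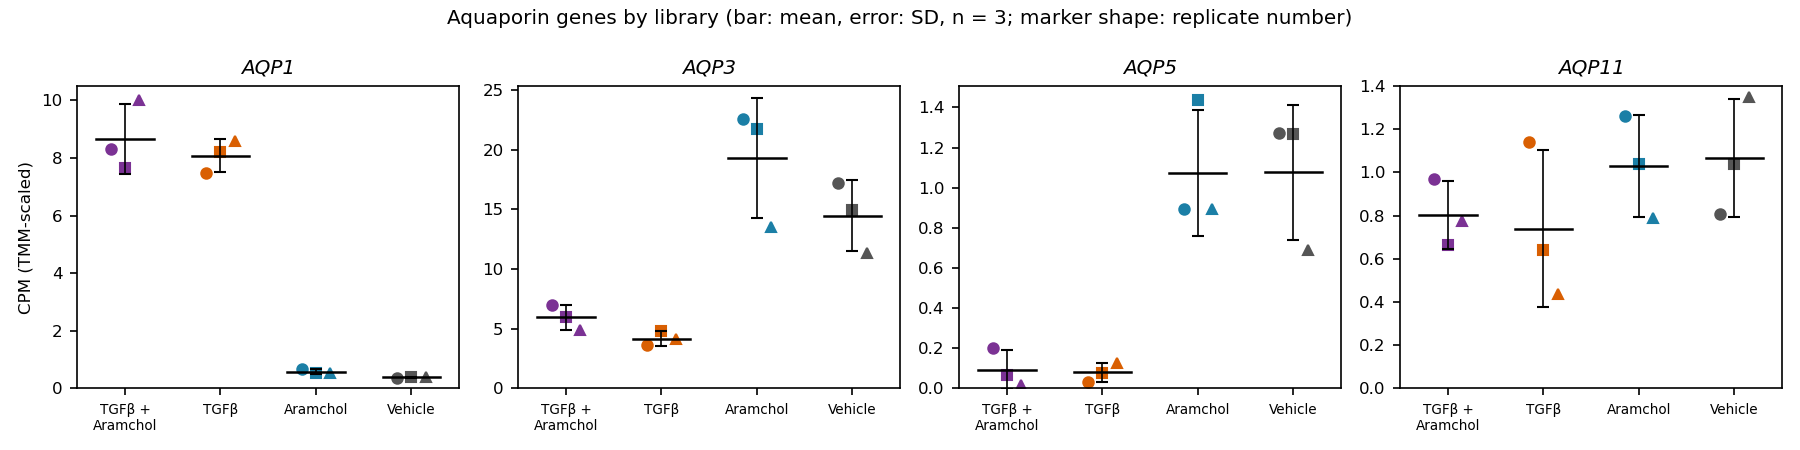
CPM of the 4 tested aquaporin genes in every library, by group, with the mean and SD of 3 libraries as black bars; axes start at 0. AQP1 is high in both groups with TGFβ, AQP3 and AQP5 are low there, and AQP11 overlaps between TGFβ and vehicle.

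The genes that rose in this list carry ions. KCNN4, a calcium-activated potassium channel, averaged 30.3 ± 6.11 CPM with TGFβ and 11.8 ± 2.82 CPM in vehicle (log2 fold change 1.36, edgeR adjusted p = 8.28e-06). SLC26A6 and SLC4A3, further anion exchangers, rose 1.496- and 1.63-fold, and SLC4A7, a sodium bicarbonate importer, rose 1.49-fold, close to SLC4A2. The secretin receptor gene SCTR and the calcium-activated chloride channel gene ANO1 did not pass the filter, with 43 and 33 reads over all 12 libraries. Of the 22 receptor and signalling genes 17 were tested, and 7 rose and 5 fell (37.0% of all tested genes passed). P2RY2, a receptor for extracellular ATP that acts through calcium, averaged 48.9 ± 2.67 CPM with TGFβ and 7.49 ± 1.84 CPM in vehicle (6.55-fold, edgeR adjusted p = 3.95e-10). VDR, the vitamin D receptor, rose 2.45-fold, and PRKAR2B, a regulatory subunit of the cAMP-dependent kinase, was 2.56-fold lower.

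Of 20 genes for transport of bile acids, organic anions, drugs and glucose, 12 were tested, and 1 rose and 3 fell with TGFβ, a share near the 37.0% of all tested genes that passed. ABCC4, an efflux pump related to ABCC3, averaged 31.6 ± 1.77 CPM with TGFβ and 47.3 ± 2.69 CPM in vehicle (log2 fold change -0.58, edgeR adjusted p = 5.35e-06), opposite in direction to ABCC3. SLCO4A1, an organic anion carrier, was 2.22-fold lower, and the glucose carrier gene SLC2A1 was 1.92-fold higher. The apical bile acid carrier gene SLC10A2 and the drug efflux gene ABCB1 had no read in any library.

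Of the 25 other duct identity genes 21 were tested, and 9 rose and 5 fell with TGFβ (37.0% of all tested genes passed, 18.9% higher and 18.1% lower). CDH1, E-cadherin, had the largest fall (6.59-fold lower). FOXA2, a transcription factor of foregut epithelia, averaged 25.6 CPM with TGFβ and 48.7 CPM in vehicle. CLDN4, a tight junction protein, rose 3.65-fold and JAG1, a Notch ligand, 2.86-fold. Adding Aramchol to TGFβ lowered CLDN4 to 13.5 ± 1.18 CPM, against 20.2 ± 0.709 CPM with TGFβ (log2 fold change -0.58, edgeR adjusted p = 0.00888). It also raised FOXA2 by 0.34 on the log2 scale (edgeR adjusted p = 0.0105), a call lost without TGFβ replicate 1 or TGFβ + Aramchol replicate 2 (adjusted p = 0.0516 and 0.0539). JAG1 fell by 0.18 in the same comparison (edgeR adjusted p = 0.0458), a call that 9 of the 12 single omissions removed (adjusted p up to 0.163). These 3 were the only ones of the 21 tested genes of the list called there, where 2.25% of all tested genes passed.

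**Figure D5:**
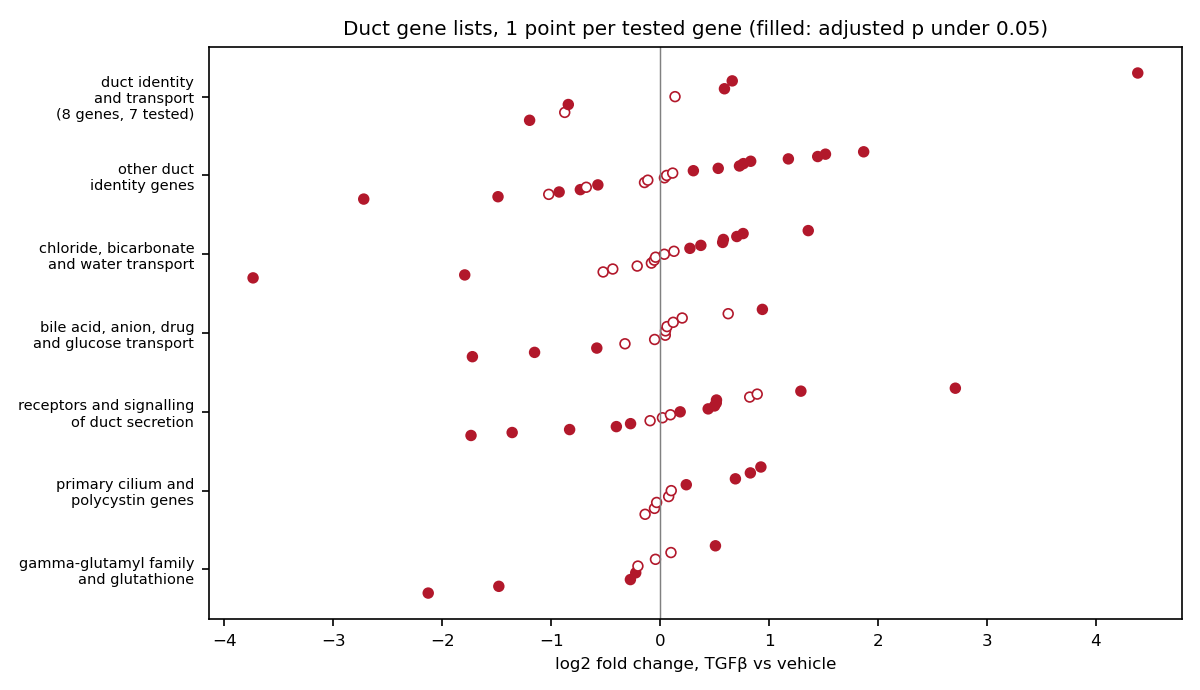
Log2 fold change with TGFβ against vehicle for every tested gene of the duct gene set and of 6 related lists, 1 point per gene, filled where the adjusted p was under 0.05. AQP1 at 4.39 is the highest point, and AQP5 at -3.74 the lowest.

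The cell type label was checked against its markers. KRT7 (274.5 to 999 CPM over 12 libraries) and KRT19 (14.7 to 33.4 CPM), keratins of bile ducts, SOX9 and EPCAM were expressed. With TGFβ against vehicle 37.0% of all tested genes passed (18.9% higher, 18.1% lower), the share to set beside each count of this paragraph. Of 9 tested fibroblast markers of 10, 6 rose and 1 fell with TGFβ. Their summed level was 4695 to 6249 CPM with TGFβ and 1109 to 1338 CPM in vehicle. Most of that sum was COL1A1, with a mean of 4750 CPM with TGFβ and 1058 CPM in vehicle. FAP was 23.7-fold and COL1A2 8.82-fold higher with TGFβ, and COL3A1 had at most 0.115 CPM. Summed hepatocyte markers were at 108 to 116 CPM with TGFβ and 70.5 to 94.0 CPM in vehicle (2 of 6 tested higher, 2 lower). HNF4A was 20.3-fold higher, and APOB was 5.09-fold and FGB 3.16-fold lower. TTR was at 0 and ALB at most 0.154 CPM. Endothelial markers summed to 7.97 to 10.99 CPM with TGFβ and 10.2 to 16.9 CPM in vehicle (1 of 6 higher, 2 lower). The 2 lower ones were CLDN5 (3.04-fold) and PECAM1 (1.56-fold). Leukocyte markers summed to 5.30 to 6.05 CPM with TGFβ and 28.0 to 34.5 CPM in vehicle. That sum was nearly all CD14, the only tested one of 6, which fell, while CD3E was at 0 and PTPRC at most 0.148 CPM. The part of these lists in the changes of the duct genes was not tested.

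The genes closest in pattern to each member were ranked by the root mean square difference of log2 CPM, each gene centred on its own mean, over the 12 libraries and 11286 genes of at least 5 CPM. For AQP1 they were NXPH4 (0.24), AMZ1 (0.25) and PMEPA1 (0.29), beside an SD of 2.13 for AQP1 itself. For SOX9 they were ZSCAN16 (0.07), BUB1 and PM20D2 (0.11 each), and for EPCAM AVPI1, STOM (0.10 each) and SH3BP4 (0.11). SLC4A2 was nearest to NINL, PLCB3 and FADS3 (0.04 each), and ABCC3 to KIAA0930 (0.05), KCNK6 and PTGER2 (0.06 each). For the low genes the nearest were farther off, with BEND7 (0.41), TLR2 and KCTD15 (0.42 each) for ONECUT1, and ZNF552, OMA1 (0.29 each) and C17orf58 (0.33) for GGT1.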

How the data were processed

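Per the labels' protocols, Trizol RNA went into the 2S Plus kit for library preparation. Per the submitters' processing notes, the authors used STAR 2.7.9a on GRCh38 and featureCounts, and DESeq2 is named too. The deposited table holds counts (whole reads per gene and library) and an exon length per gene; the annotation release, strand setting and handling of reads in several genes are not stated.

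Columns were matched to samples by library name, and 62625 of 62703 IDs had a symbol. After filterByExpr, 21567 genes remained. edgeR 4.0.16 (R 4.3.3) fitted its quasi-likelihood model to all 12 libraries, with TMM factors of 0.930 to 1.09 and a mean for each group. A call is an adjusted p under 0.05 (Benjamini-Hochberg, all genes tested). Intervals (95%) come from that fit. Reads had no molecular identifiers, so the floor of 3 counts covers counting error only. The alternatives were RLE or upper quartile scaling, testing unfiltered genes, a filter of 10 counts in 3 libraries and a mean of 1 CPM, DESeq2 1.42.0, a replicate block, the compared groups alone, libraries numbered 1 and 2, and omission of each library. The members, lists and alternatives were chosen with earlier results of these data known. The text names all members, the 3 genes nearest each called member in pattern, and relatives or overlapping genes. From each list it names up to 3 called genes of largest change with TGFβ against vehicle. These had 1 CPM or more in their higher group. AQP11, FOXA2, SLC26A6, SLC4A3, SLC4A7 and the untested genes were added after their values were seen. The procedure was run on simulated counts, read for TGFβ against vehicle alone, with far fewer changed genes than were called here. That run does not cover scaling under changes this widespread, nor the interaction. No pair of libraries in a group was a duplicate. Tables and figures used Python 3.11.15, pandas 2.3.3, numpy 2.4.6 and matplotlib 3.10.9.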

Additional observations from a re-analysis of the deposited data

Results flagged for a closer look

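JAG1, the Notch ligand among the other duct identity genes, was the only listed gene whose TGFβ response differed with Aramchol by the test of that difference. Of all tested genes 0.0139% passed that test. The interaction was -0.47 on the log2 scale (SE 0.06, edgeR adjusted p = 0.0205), with a response of 1.05 in the presence of Aramchol and of 1.52 in its absence. JAG1 had 164, 167 and 161 CPM with both agents, 184, 186 and 187 with TGFβ, 80.3, 81.0 and 76.3 with Aramchol and 64.5, 65.7 and 64.4 in vehicle, and no 2 groups overlapped. Leaving out single libraries removed the interaction call in 10 of 12 cases (adjusted p 0.0542 to 0.145 in those). JAG1 was also called with Aramchol against vehicle (log2 fold change 0.29, edgeR adjusted p = 0.0123). That call was lost in 4 of the 12 single omissions (adjusted p up to 0.0941) and with only the 2 groups compared (adjusted p = 0.171).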

How the results depend on the processing

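The calls of AQP1, SLC4A2, ABCC3, EPCAM and SOX9 in the 3 comparisons of TGFβ with its absence held under all 20 alternatives, and no member was called in the other comparisons or the interaction under any. The changes for ONECUT1 and GGT1 stand beside their values above. The number of members called was 5 to 6 in each of the 3 when single libraries were left out. With all libraries, 37.0% of all tested genes passed with TGFβ against vehicle. The share was 30.2% with TGFβ + Aramchol against Aramchol and 35.2% with TGFβ + Aramchol against vehicle. Over all member values and alternatives, 788 of 816 kept their direction and side of the threshold, 10 lost a call, 1 gained one and 17 changed sign, none of them called. With the libraries numbered 1 and 2 alone these were EPCAM with Aramchol against vehicle (0.0016) and the interactions of SLC4A2 (0.016) and ABCC3 (0.051). With single libraries left out, log2 fold changes with Aramchol against vehicle ran from -0.19 to 0.096 for EPCAM, -0.060 to 0.018 for SLC4A2 and -0.14 to 0.062 for ABCC3. With both agents against TGFβ they ran from -0.0019 to 0.18 for EPCAM and -0.019 to 0.17 for AQP1, with TGFβ against vehicle from -0.45 to 0.44 for ONECUT1, and in the interaction from -0.025 to 0.26 for EPCAM, -0.076 to 0.0017 for SLC4A2, -0.15 to 0.050 for ABCC3 and -0.062 to 0.61 for GGT1. The cause was not tested.

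Counts over all genes moved more. Aramchol against vehicle called 77 genes, against 531 without a filter, 1544 with the libraries numbered 1 and 2 alone, 5 with only the 2 groups, 395 by DESeq2 and 16 to 610 with single libraries left out. TGFβ + Aramchol against TGFβ called 486, against 1278, 1853, 960, 1042 and 55 to 1208 in the same settings. The interaction called 3, against 151 without a filter, 191 with libraries 1 and 2, 27 by DESeq2 and 0 to 7 with single libraries left out. The replicate block gave 464, 1519 and 23 calls in these 3, and changed no member call. Same-numbered libraries correlated at 0.0074 to 0.22 in their deviations from the group means, over 0.1 in 7 of 18 pairs, so the numbers were not taken to pair all libraries. Of those 7 pairs 6 were of number 3, at 0.111 to 0.221, with a negative correlation to every other number. Deviations from a group mean cancel within the group. The negative values thus follow in part from the positive ones and are no separate evidence. Of all 18 pairs, 12 correlated best with their own number. ONECUT1 and GGT1 rest on few reads, and CFTR is beyond this depth.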

Other observations

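Relatives of GGT1 and genes at the ends of glutathione metabolism formed a further list of 15, of which 8 were tested. With TGFβ against vehicle 1 rose and 4 fell (37.0% of all tested genes passed). GGT5, a relative of GGT1 that cleaves leukotriene C4, had 23.1, 23.7 and 19.0 CPM with TGFβ, against 124, 111 and 52.8 CPM in vehicle, where replicate 3 stood apart (log2 fold change -2.13, edgeR adjusted p = 2.94e-06). GCLM, a subunit of the enzyme that starts glutathione synthesis, was 1.42-fold higher, and GSS, glutathione synthetase, was 1.21-fold lower. GGT2P and GGT3P were listed at 0 in every library.

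Of 10 primary cilium and polycystin genes 9 were tested, and 4 rose and 0 fell with TGFβ, near the 37.0% of all tested genes that passed. DZIP1L, a ciliary transition zone gene, averaged 31.8 ± 0.860 CPM with TGFβ and 16.8 ± 0.835 CPM in vehicle (log2 fold change 0.93, edgeR adjusted p = 1.69e-08). Of the 9 tested, DZIP1L was the only one called with both agents against TGFβ, where 2.25% of all tested genes passed. Its log2 fold change there was -0.38 (edgeR adjusted p = 0.0105). The call was lost without TGFβ replicate 1 or TGFβ + Aramchol replicate 1 or 2 (adjusted p up to 0.0644). GLIS3, a transcription factor gene, rose 1.62-fold, and TRPV4, a calcium channel gene, 1.78-fold. PKHD1, the gene of recessive polycystic disease, had 16 reads over 12 libraries.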
